A study of Homo sapiens with 10 samples.

Results

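The genes described here belong to the cytoskeleton, and most of them build or bind actin filaments. They include the cytoplasmic actins ACTB and ACTG1, the 4 tropomyosin genes TPM1, TPM2, TPM3 and TPM4, and the intermediate filament protein VIM. The others are the myosin light chain MYL9, the filament-severing protein CFL1 and the actin-bundling protein TAGLN. These 10 genes were chosen by name, as features whose gene name is one of them or holds it in a comma-joined name. They gave 10 of the 19301 named features, and 9 of these reached a mean of at least 1 FPKM (a level corrected for transcript length and for how many fragments the library holds) and entered the tests. TPM2 and the joint feature named ACTB,ACTG1 had been seen to be higher with the INT guide, so all differences of INT are given as descriptions with no test. For both features, differences from the activator alone and from the plain sgRNA are also given with no test, because those libraries served as references for INT.

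Polyadenylated RNA was sequenced from HEK293FT cells, a readily transfected line of human embryonic kidney origin, carrying Gaussia and Cypridina luciferase reporters integrated by lentivirus. Every group received 59 ng of plasmid for dCas9-VP64, a Cas9 that cannot cut DNA fused to a transcriptional activator, with 679.4 ng of carrier plasmid, in wells plated with 125000 cells, and RNA was taken 3 days after transfection. The groups are INT, P4P6, TOP1 and sgRNA, each with 11.6 ng of plasmid for the U6-driven guide of that name directed at the Gaussia reporter, and CasVP, which had the activator and no guide. Each group has 2 libraries, named here by the index 0 or 1 of their column. None of the guides is directed at an actin or tropomyosin gene. The labels do not say how the INT, P4P6 and TOP1 guides were modified, whether the cells were 1 clone, or whether a group's libraries were grown as separate cultures. P-values therefore measure only the spread between libraries, which may be technical.

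Actin monomers assemble into polar filaments that give a cell its shape and carry myosin motors. Tropomyosins are coiled-coil dimers that lie end to end along the filament and govern which other proteins reach it; the 4 genes give many isoforms by alternative promoters and splicing. The pool of free actin monomers is itself a signal: it holds the coactivator MRTF out of the nucleus, and when the pool shrinks MRTF joins the transcription factor SRF at CArG boxes in the promoters of many cytoskeletal genes.

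ACTB and ACTG1 encode near-identical proteins from genes on chromosomes 7 and 17. Whether this likeness affected the values was not tested. The table had a feature named ACTG1 and a joint feature named ACTB,ACTG1, and no feature named ACTB alone, so ACTB is seen only through the joint feature and how fragments were divided between both features is not given in the sources used here. Over the 1125 coding bases of GENCODE 29 transcripts ACTB-201 and ACTG1-210, stop codon left out, the transcripts differed at 98 positions and were 91.3% identical. The first 60 coding bases are shown because they hold 10 of these differences, marked by capitals.
ACTB-201: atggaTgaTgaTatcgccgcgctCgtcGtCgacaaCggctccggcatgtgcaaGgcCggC
ACTG1-210: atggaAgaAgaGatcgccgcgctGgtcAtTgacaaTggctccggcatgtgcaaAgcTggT
Of the 1076 coding windows of 50 bases in ACTB-201, 10 (0.929%) occurred unchanged in ACTG1-210, and none of the 552 windows after its stop codon did. For TPM1, TPM2, TPM3 and TPM4, 1 coding transcript per gene was compared with the coding transcripts of each other tropomyosin gene. No window of 50 bases was shared.

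Estimated depth ran between 19700000 fragments in P4P6 replicate 0 and 28900000 in TOP1 replicate 0. Across genes, which are not independent replicates, libraries correlated on the log2 scale at a Pearson's r of 0.994 to 0.998 within groups and 0.991 to 0.998 between them. The summed FPKM of all named features was lowest in the P4P6 libraries, at 522550 and 540085, against 548895 to 598372 in the other libraries, while the upper quartile was between 17.3 and 17.7 FPKM in all. Of 10 markers typical of HEK293 cells, 9 were expressed above the filter, the exception being PAX2 with a mean of 0.926 FPKM. Muscle markers were few: 3 of 15 passed the filter (TNNT1, ACTA2 and TNNI3), their sum was 45.9 to 53.4 FPKM in every group, and MYOD1, DES, MYH7, ACTC1 and MYOG averaged between 0.00213 and 0.188 FPKM. Fibroblast markers summed to 2.77 to 3.53 FPKM with P4P6 and 2.2 to 2.71 FPKM with TOP1, with no overlap, and to 2.56 to 3.01 FPKM in the other groups; COL1A2 was at 0 in all 10 libraries.

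The 2 actin features were the most abundant of the set. ACTG1 stood at 686 and 608 FPKM in the INT libraries, 636 and 649 with P4P6, 582 and 582 with TOP1, 602 and 608 with sgRNA, and 579 and 567 in CasVP. The joint ACTB,ACTG1 feature stood at 427 and 618 FPKM with INT, 417 and 425 with P4P6, 364 and 370 with TOP1, 375 and 379 with sgRNA, and 367 and 375 in CasVP. For both features all INT and P4P6 libraries lay above both CasVP libraries, and libraries of the same group lay close together in every group but INT.

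One library stood apart in the joint feature. In INT replicate 1 the ratio of the joint feature to ACTG1 was 1.02, whereas in INT replicate 0 it was 0.622, and in the P4P6, TOP1, sgRNA and CasVP libraries it lay between 0.623 and 0.661. INT replicate 1 thus had more joint FPKM and less ACTG1 FPKM than INT replicate 0. Summed over both features, actin was at 1114 and 1225 FPKM with INT, 1053 and 1074 with P4P6, 946 and 953 with TOP1, 977 and 987 with sgRNA, and 946 and 942 in CasVP. On this sum, chosen after the values were seen, the INT libraries and then the P4P6 libraries were the highest, and neither group overlapped any other.

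**Figure D1:**
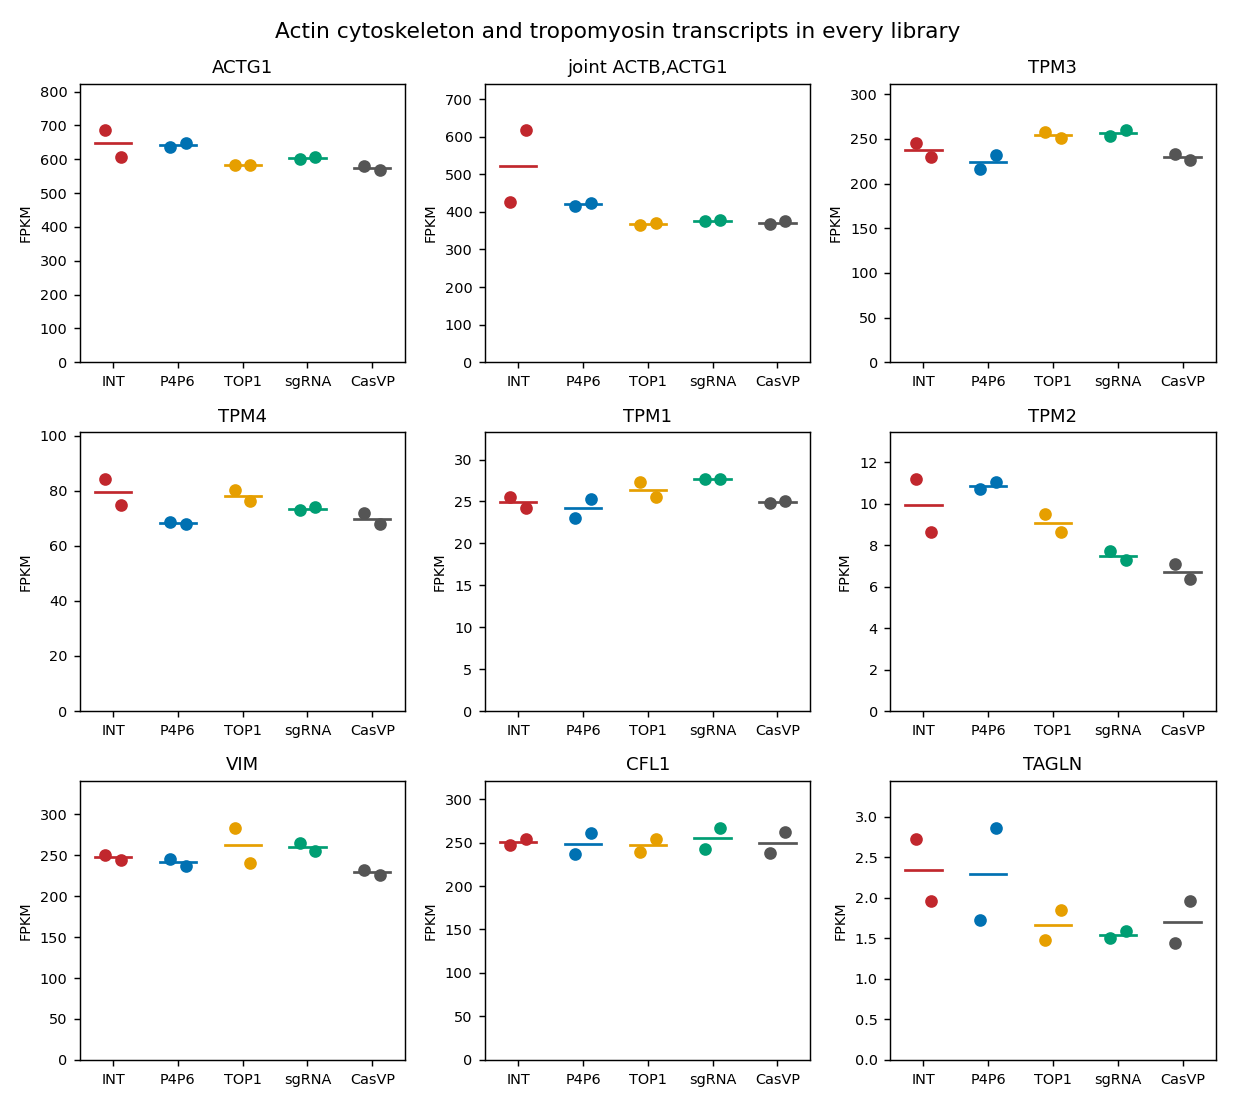
FPKM (vertical axes, starting at 0, with a scale of its own in each panel) of the 9 tested features in each of the 10 libraries, by group; points are libraries and lines are group means. In TPM2 the P4P6 libraries (10.7 and 11.0 FPKM) and the CasVP libraries (7.07 and 6.38 FPKM) stand at opposite ends, and in the joint actin feature INT replicate 1 (618 FPKM) stands far above all others.

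Among the tropomyosins the order of levels was TPM3, TPM4, TPM1 and TPM2 in every group. TPM3, a tropomyosin of both muscle and non-muscle cells, made up 67.5% of summed tropomyosin FPKM with INT (SD 0.761, n = 2), 68.5% with P4P6 (SD 0.757), 69.1% with TOP1 (SD 0.455), 70.3% with sgRNA (SD 0.274) and 69.3% in CasVP (SD 0.218). TPM4, which encodes non-muscle tropomyosins, gave 20.1 to 22.6% by group, and TPM1, which gives many muscle and non-muscle isoforms, gave 7.08 to 7.58%. TPM2, best known for skeletal and smooth muscle tropomyosin, gave 2.81% with INT (SD 0.346), 3.32% with P4P6 (SD 0.0560), 2.46% with TOP1 (SD 0.108), 2.05% with sgRNA (SD 0.109) and 2.03% in CasVP (SD 0.0982).

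Among the 9 tested features, TPM2 had the widest span of group means. It stood at 11.2 and 8.64 FPKM with INT, 10.7 and 11.0 with P4P6, 9.51 and 8.62 with TOP1, 7.69 and 7.27 with sgRNA, and 7.07 and 6.38 in CasVP. All libraries of INT, P4P6 and TOP1 lay above all libraries of sgRNA and CasVP, and the neighbours P4P6 and INT, and INT and TOP1, overlapped. At the estimated depths these levels correspond to 154 to 288 fragments per kilobase of transcript. Its group means spanned 0.62 on the log2(FPKM + 1) scale, a larger span than in 99.7% of the 11574 tested features, whose median span was 0.17. The joint actin feature spanned 0.48, more than 98.7% of them. Both spans include libraries that served to choose these features and are given as descriptions.

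The other tropomyosins had narrower spans than TPM2 and another order. Their group means spanned 0.19 for TPM3, 0.22 for TPM4 and 0.19 for TPM1 on the log2 scale, more than 61.1%, 68.7% and 59.4% of tested features. TPM3 stood at 246 and 230 FPKM with INT, 217 and 232 with P4P6, 258 and 251 with TOP1, 254 and 260 with sgRNA, and 233 and 226 in CasVP. TPM4 stood at 84.3 and 74.7 FPKM with INT, 68.5 and 67.9 with P4P6, 80.2 and 76.3 with TOP1, 73.0 and 74.0 with sgRNA, and 71.8 and 67.8 in CasVP. TPM1 stood at 25.5 and 24.3 FPKM with INT, 23.1 and 25.3 with P4P6, 27.3 and 25.5 with TOP1, 27.7 and 27.7 with sgRNA, and 24.9 and 25.01 in CasVP. In these 3 genes the P4P6 group mean was the lowest of all groups, whereas in TPM2 it was the highest.

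The remaining genes include the steadiest of the set. CFL1, the non-muscle cofilin that severs filaments and returns monomers to the pool, lay between 237 and 267 FPKM in all libraries, and its group means spanned 0.04 on the log2 scale; 1.61% of tested features had a smaller span. VIM, the intermediate filament protein of mesenchymal and many cultured cells, stood at 250 and 245 FPKM with INT, 246 and 237 with P4P6, 284 and 240 with TOP1, 265 and 256 with sgRNA, and 232 and 226 in CasVP. All 8 libraries with a guide lay above both CasVP libraries in VIM. TAGLN, an actin-bundling protein abundant in smooth muscle, was near the filter at 2.72 and 1.96 FPKM with INT, 1.73 and 2.86 with P4P6, 1.47 and 1.85 with TOP1, 1.5 and 1.59 with sgRNA, and 1.44 and 1.96 in CasVP. Every neighbouring pair of groups in its order overlapped, and at the estimated depths its levels correspond to 30.0 to 69.9 fragments per kilobase.

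MYL9, a regulatory light chain of non-muscle and smooth muscle myosin, was listed at 0 in all 10 libraries and did not enter the tests. The related light chains were measured, with means over all libraries of 404 FPKM for MYL6, 95.8 for MYL12B and 46.0 for MYL12A. None of 20 housekeeping genes looked at was listed at 0 throughout.

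**Figure D2:**
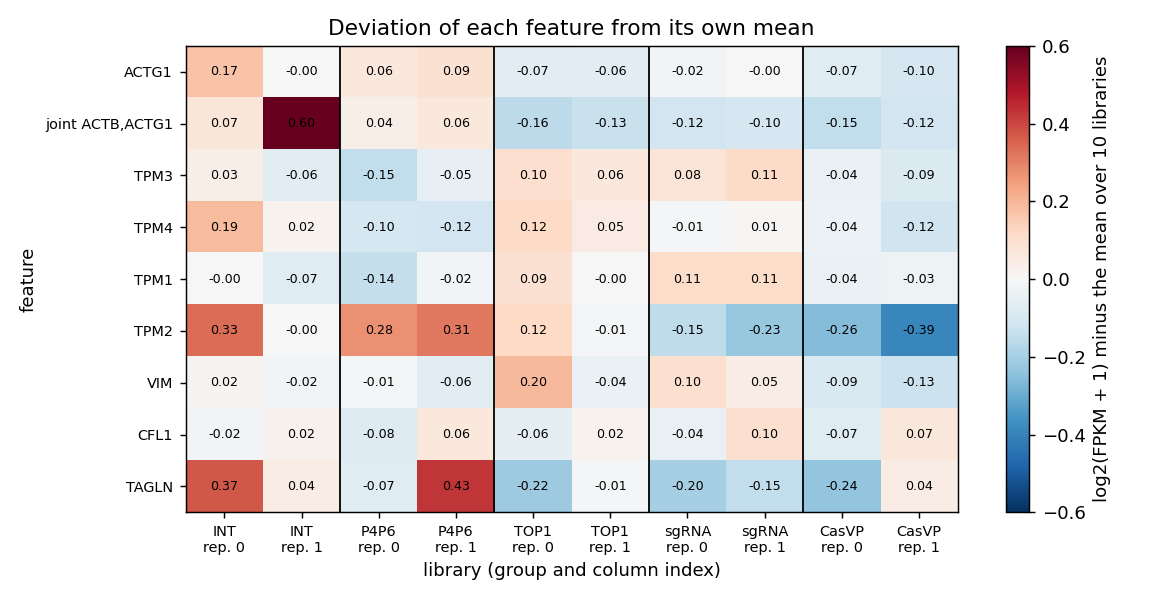
Deviation of each tested feature from its own mean over the 10 libraries, on the log2(FPKM + 1) scale, with features as rows and libraries as columns; the numbers are the deviations. TPM2 is above its mean in both P4P6 libraries (0.28 and 0.31) and below it in both CasVP libraries (-0.26 and -0.39), while CFL1 stays within 0.10 of its mean in every library.

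The guides were compared with each other to see whether the tropomyosin and actin levels differed between P4P6, TOP1 and the plain sgRNA. The stated reason for the choice names INT and not the differences among these groups. The genes were, however, chosen with earlier results of these data known. Which results these were is not stated, so independence of these tests from the choice cannot be shown. The sgRNA libraries did serve as a reference for INT, so TPM2 and the joint actin feature are described and not tested against sgRNA, which leaves 7 features open to a test there. P4P6 against TOP1 shares no library with INT against CasVP or INT against sgRNA, and all 9 were tested in it. Whether other comparisons of INT also entered the choice of TPM2 and the joint actin feature is not stated. Their tests there may therefore depend on that choice.

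With P4P6 against sgRNA, 1 of the 7 features open to a test passed, TPM3 downwards, at a background of 11.5% of all tested features. TPM3 averaged 224 FPKM with P4P6 (SD 11.0, n = 2) and 257 FPKM with sgRNA (SD 4.38, n = 2), a ratio of 0.874 and a log2 difference of -0.19 (SE 0.05, limma adjusted p = 0.0396), where 7.17% passed downwards. TPM2, given as description, averaged 10.9 FPKM with P4P6 (SD 0.228, n = 2) and 7.48 FPKM with sgRNA (SD 0.300, n = 2), 1.45 times as high. Its difference on the log2(FPKM + 1) scale was 0.49, and 0.45 to 0.52 with any 1 of these 4 libraries left out.

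In bulk RNA, fewer cells of a type and less RNA per cell cannot be told apart. Of the 3 expressed muscle markers, TNNT1 averaged 23.8 FPKM with P4P6 (SD 4.005) and 23.4 FPKM with sgRNA (SD 1.82), ACTA2 averaged 13.1 FPKM with P4P6 (SD 5.89) and 15.2 FPKM with sgRNA (SD 2.88), and TNNI3 averaged 9.44 FPKM with P4P6 (SD 0.656) and 11.2 FPKM with sgRNA (SD 0.821, n = 2 each). None of the 3 passed, TNNI3 was the 1 whose libraries did not overlap, and the part of these cells in the TPM2 and TPM3 levels was not tested. The TPM3 call was lost without any 1 of the 4 libraries (limma adjusted p = 0.0602 to 0.195). Without P4P6 replicate 1 or a sgRNA library at most 0.0173% of all features passed, beside 17.7% without P4P6 replicate 0. Under quantile normalization, which gives every library the same distribution, the log2 difference of TPM3 was -0.03 (adjusted p = 0.692). The P4P6 libraries also had the lowest summed FPKM, as given above. Abundant housekeeping genes were lower too: GAPDH averaged 1954 FPKM with P4P6 (SD 79.3), 2370 with TOP1 (SD 22.0) and 2379 with sgRNA (SD 37.6). ENO1 averaged 1170 (SD 5.20), 1389 (SD 43.2) and 1345 (SD 20.1). PKM2, SDHA, POLR2A and TFRC had higher means with P4P6 than with sgRNA, POLR2A at 54.9 FPKM (SD 1.37) and 44.4 FPKM (SD 1.08). The spread with P4P6 was wide in the others. TFRC averaged 30.3 FPKM with P4P6 (SD 15.6) and 25.9 with sgRNA (SD 3.39), and PKM2 averaged 318 (SD 29.5) and 299 (SD 11.6). The more abundant SDHA feature averaged 57.0 FPKM with P4P6 (SD 4.26) and 54.8 with sgRNA (SD 0.185). The part of such shifts in the TPM3 level was not tested.

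TPM1 followed TPM3 in P4P6 against sgRNA without passing, at 24.2 FPKM with P4P6 (SD 1.57, n = 2) and 27.7 FPKM with sgRNA (SD 0.00672, n = 2), a log2 difference of -0.19 (limma adjusted p = 0.0585). TPM4 differed by -0.11 (95% confidence interval -0.24 to 0.03, limma adjusted p = 0.260). ACTG1 differed by 0.09 (interval -0.04 to 0.21, limma adjusted p = 0.332), and the joint actin feature, with no test, by 0.16. In all, 4 of 9 features lay higher in P4P6 with no overlap (TPM2, ACTG1, the joint actin feature and TAGLN) and 4 lay lower (TPM1, TPM3, TPM4 and VIM), at backgrounds of 25.9% and 30.6%. VIM and CFL1 differed by -0.11 and -0.03 and did not pass, and under quantile normalization their signs turned, to 0.06 and 0.14.

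With P4P6 against TOP1, 2 of 9 features passed, TPM3 and TPM4, both downwards, at backgrounds of 20% in either direction, 8.61% upwards and 11.4% downwards. TPM3 averaged 224 FPKM with P4P6 (SD 11.0, n = 2) and 254 FPKM with TOP1 (SD 4.94, n = 2), a log2 difference of -0.18 (SE 0.05, limma adjusted p = 0.0341). TPM4 averaged 68.2 FPKM with P4P6 (SD 0.368, n = 2) and 78.2 FPKM with TOP1 (SD 2.75, n = 2), a log2 difference of -0.19 (SE 0.06, limma adjusted p = 0.0443). Under quantile normalization these differences were -0.00276 for TPM3 (adjusted p = 0.970) and -0.10 for TPM4 (adjusted p = 0.278). TPM4 lost its call without any 1 of the 4 libraries (limma adjusted p = 0.0735 to 0.207), and TPM3 kept it only without P4P6 replicate 1 (0.0363) and lost it without P4P6 replicate 0 (0.111), TOP1 replicate 0 (0.157) or TOP1 replicate 1 (0.0879). In these fits 11% of all features passed without P4P6 replicate 1, 23.8% without P4P6 replicate 0, 3.1% without TOP1 replicate 0 and 5.24% without TOP1 replicate 1.

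TPM2 was higher with P4P6 than with TOP1 in every library but did not pass, with a log2 difference of 0.24 (SE 0.10, 95% confidence interval 0.01 to 0.47, limma adjusted p = 0.123). ACTG1 differed by 0.14 (interval 0.02 to 0.27, limma adjusted p = 0.10) and the joint actin feature by 0.20 (interval -0.08 to 0.47, limma adjusted p = 0.282). The actin features summed differed by 0.16, given as description, because the sum was chosen after the values were seen and holds the joint feature. Under quantile normalization ACTG1 passed as higher with P4P6, by 0.27 against TOP1 (limma adjusted p = 0.0274) and by 0.27 against sgRNA (0.0434). In P4P6 against TOP1, 3 of 9 features lay higher with no overlap and 3 lower, at backgrounds of 27.5% and 32.5%.

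With TOP1 against sgRNA, 0 of the 7 features open to a test passed in limma, at a background of 0.00864%, and 195 of the 11574 tested features, none of these 7 among them, had an unadjusted p under 0.05. TPM2, given as description, averaged 9.06 FPKM with TOP1 (SD 0.634, n = 2) and 7.48 FPKM with sgRNA (SD 0.300, n = 2), a log2 difference of 0.25. TPM3 differed by -0.01 (95% confidence interval -0.13 to 0.10) and TPM4 by 0.09 (interval -0.04 to 0.22). With no overlap, 2 features lay higher (TPM2 and TPM4; background 15.1%) and 3 lower (TPM1, ACTG1 and the joint actin feature; background 14.1%).

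**Figure D3:**
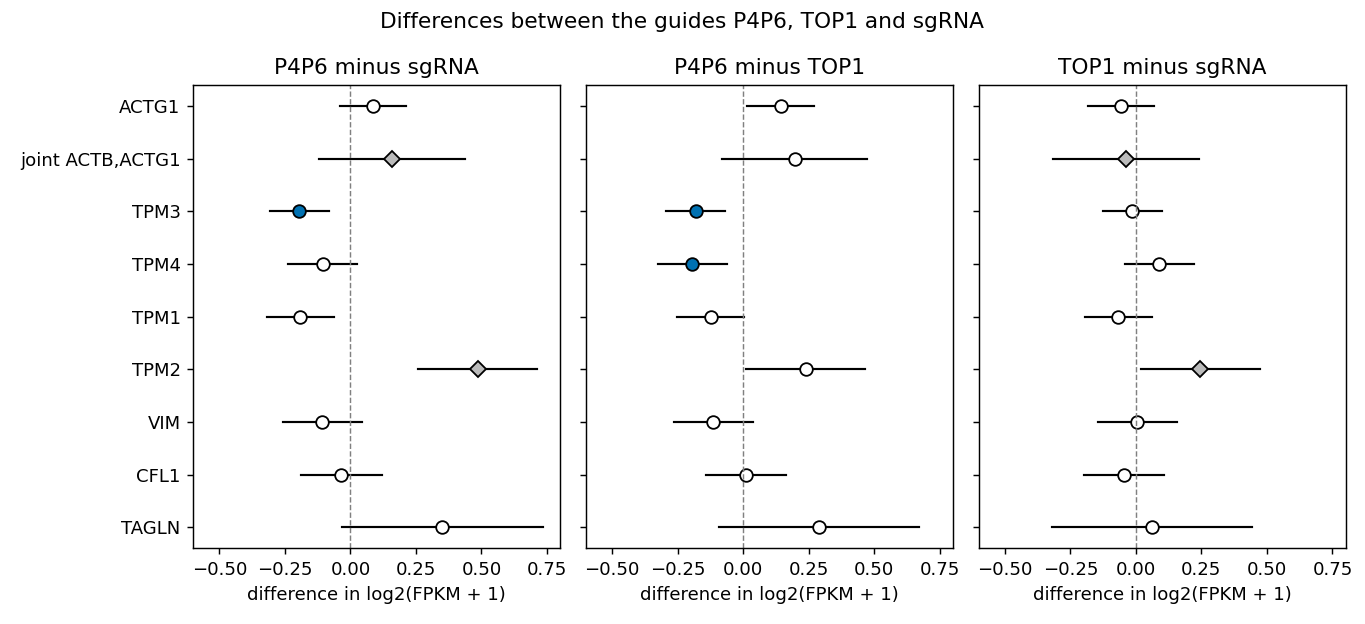
Differences in log2(FPKM + 1) (horizontal axes) of 9 features for P4P6 minus sgRNA, P4P6 minus TOP1 and TOP1 minus sgRNA; points are estimates, bars are 95% confidence intervals from limma, blue points passed an adjusted p of 0.05, white points did not, and grey diamonds were not tested. TPM3 (-0.19) passed in P4P6 minus sgRNA, where the untested TPM2 stands at 0.49, TPM3 (-0.18) and TPM4 (-0.19) in P4P6 minus TOP1, and none in TOP1 minus sgRNA. The bars of the grey diamonds are descriptions and are not to be read as tests.

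Against the activator alone, 0 of the 7 features open to a test passed with any of the 3 guides sgRNA, P4P6 and TOP1. The backgrounds in limma were 0.00864% with P4P6 and with TOP1 and 0.0173% with sgRNA, so almost no feature of any kind passed there. At an unadjusted p under 0.05 in limma there was 1 of 7 members with P4P6 (ACTG1), where 2568 of all tested features (22.2%) reached it. With TOP1 there were 3 of 7 (TPM3, TPM4 and VIM), where 1067 (9.22%) did. With sgRNA there were 3 of 7 (TPM1, TPM3 and VIM), where 697 (6.02%) did. These comparisons share the CasVP libraries, so an offset of those libraries enters each of them.

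Where members did not overlap CasVP they lay above it. With no overlap, 4 of 9 lay higher with P4P6 (background 23.4%), 6 with TOP1 (24.7%) and 7 with sgRNA (24%), and none lay lower, at backgrounds of 28.1%, 23.5% and 22%. TPM2 is among those higher with each guide, and the joint actin feature among those higher with P4P6 and with sgRNA. For the joint feature with sgRNA the gap was narrow, at 374.955 FPKM in sgRNA replicate 0 and 374.904 FPKM in CasVP replicate 1. The CasVP libraries served as references when TPM2 and the joint feature were chosen, so these counts are not free of the choice. TPM3 was at 254 FPKM with TOP1 (SD 4.94), 257 with sgRNA (SD 4.38) and 230 in CasVP (SD 4.89, n = 2 each), log2 differences of 0.15 with TOP1 (limma adjusted p = 0.501) and 0.16 with sgRNA (0.791). VIM differed from CasVP by 0.08 with P4P6 (limma adjusted p = 0.548), 0.19 with TOP1 (0.509) and 0.18 with sgRNA (0.791). ACTG1 differed from CasVP by 0.16 with P4P6 (limma adjusted p = 0.141; 95% confidence interval 0.04 to 0.29), 0.02 with TOP1 (0.923) and 0.08 with sgRNA (0.824). Under quantile normalization the ACTG1 differences with TOP1 and with sgRNA turned to -0.03 each.

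TPM2 and the joint actin feature differed from CasVP as follows, given as description. TPM2 was 1.62 times the CasVP level with P4P6 (log2 difference 0.62), 1.35 times with TOP1 (0.38) and 1.11 times with sgRNA (0.14). The joint actin feature differed by 0.18 with P4P6, -0.01 with TOP1 and 0.02 with sgRNA. TPM2 thus lay above CasVP in all 8 libraries with a guide, and the joint feature in the INT, P4P6 and sgRNA libraries. In the joint feature, sgRNA replicate 0 (374.955 FPKM) was nearly level with CasVP replicate 1 (374.904 FPKM).

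INT, the comparison behind the choice of genes, is described with no test. Against CasVP, TPM2 was 1.47 times as high with INT (9.91 FPKM, SD 1.80, against 6.72 FPKM in CasVP, SD 0.489, n = 2 each), a log2 difference of 0.49. The joint actin feature was 1.41 times as high (523 FPKM with INT, SD 135, against 371 FPKM in CasVP, SD 5.36), a log2 difference of 0.47 that was 0.20 without INT replicate 1 and 0.73 without INT replicate 0. For TPM2 the log2 difference was 0.66 without INT replicate 1 and 0.32 without INT replicate 0. ACTG1 differed by 0.17, TPM4 by 0.18, VIM by 0.11, TPM3 by 0.05 and TPM1 by -0.00306. With no overlap, 5 of 9 lay higher with INT than in CasVP and 0 lower, at backgrounds of 20.3% and 23.1%. TPM2 and the joint actin feature are among these 5 and were chosen as higher with INT, so the choice fixed part of the count. Against sgRNA, TPM2 differed by 0.35 with INT, or 0.52 without INT replicate 1 and 0.19 without INT replicate 0. The joint feature differed by 0.45, or 0.18 without INT replicate 1 and 0.71 without INT replicate 0. With no overlap, 4 of 9 lay higher with INT than with sgRNA (TPM2, the joint actin feature, TAGLN and TPM4) and 3 lower (TPM1, TPM3 and VIM), at backgrounds of 19.7% and 23.3%. The count of 4 also holds both chosen features.

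**Figure D4:**
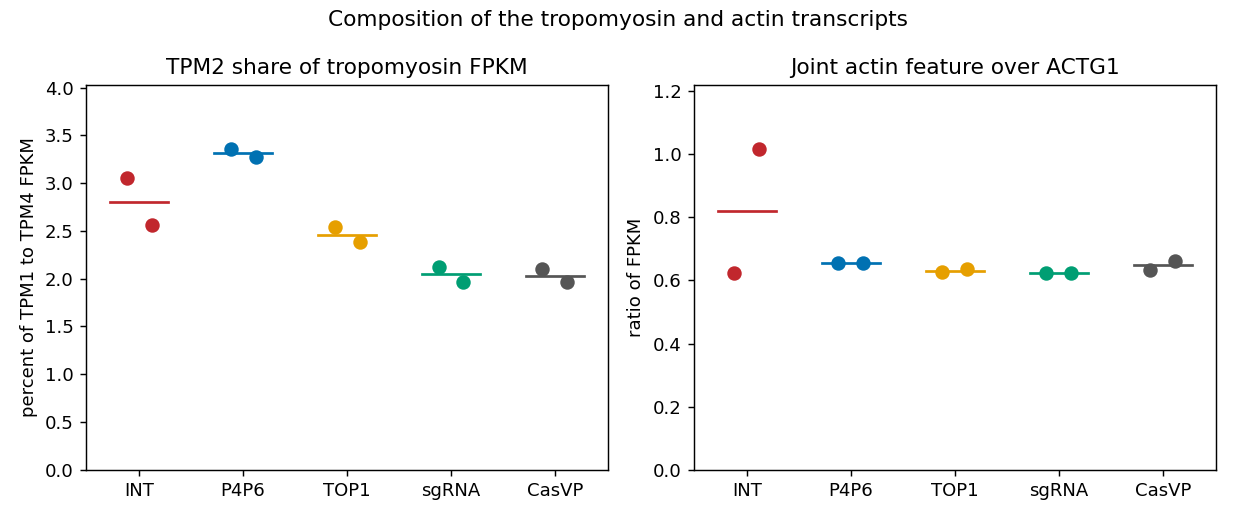
Left, TPM2 as a percent of the summed FPKM of TPM1 to TPM4; right, the ratio of the joint ACTB,ACTG1 feature to ACTG1; both by group, with points for libraries and lines for means. The TPM2 share is highest with P4P6 (3.32%) and lowest in CasVP (2.03%), and the actin ratio is 1.02 in INT replicate 1 and 0.622 to 0.661 in all other libraries.

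Genes that work with the members were followed in 4 lists, and a minority of each list passed. Lower and higher levels with P4P6 were also seen among housekeeping genes, as given above. Targets of SRF and its actin-sensing partner MRTF gave 2 of 12 tested features that rose with P4P6 against sgRNA and 5 of 12 that rose against TOP1, where 4.33% and 8.61% of all features passed upwards, and none that fell. FLNA, filamin A, which crosslinks filaments, averaged 64.9 FPKM with P4P6 (SD 4.81, n = 2), 52.8 with TOP1 (SD 1.63) and 53.4 with sgRNA (SD 3.51), log2 differences of 0.29 from TOP1 (limma adjusted p = 0.0163) and 0.28 from sgRNA (0.0307). MYH9, the heavy chain of non-muscle myosin IIA, averaged 49.8 FPKM with P4P6 (SD 1.94, n = 2), 41.2 with TOP1 (SD 0.897) and 42.3 with sgRNA (SD 1.31), log2 differences of 0.27 from TOP1 (limma adjusted p = 0.0140) and 0.23 from sgRNA (0.0326). The others that rose against TOP1 were the adhesion proteins TLN1 (0.24), ZYX (0.25) and ACTN1 (0.24), all on the log2 scale. The list's median difference was 0.17 from TOP1 and 0.06 from sgRNA, beside -0.01 over all tested features in each. Without P4P6 replicate 0, 4 rose and 2 fell against sgRNA and 5 rose and 2 fell against TOP1. Against sgRNA none passed without P4P6 replicate 1 or a sgRNA library, fits in which at most 0.0173% of all features passed. Against TOP1, 2 rose without P4P6 replicate 1, none without TOP1 replicate 0 and 1 without TOP1 replicate 1, fits in which 11%, 3.1% and 5.24% of all features passed. COL1A1, a fibroblast collagen and the 1 fibroblast marker above the filter, also rose against TOP1, at 1.76 FPKM with P4P6 (SD 0.245, n = 2) and 1.09 FPKM with TOP1 (SD 0.158, n = 2), a log2 difference of 0.40 (limma adjusted p = 0.0309). Below the filter, COL3A1 averaged 1.01 FPKM with P4P6 (SD 0.186) and 1.01 FPKM with TOP1 (SD 0.259). LUM averaged 0.221 (SD 0.116) and 0.204 FPKM (SD 0.0195), and the joint feature of CSF1R and PDGFRB 0.121 (SD 0.0597) and 0.148 FPKM (SD 0.0799). Of 9 tested HEK293 markers, 1 rose and 1 fell against TOP1. The part of fibroblast-like cells in these rises was not tested. VCL, vinculin, averaged 38.6 FPKM with P4P6 (SD 2.76, n = 2) and 40.7 with sgRNA (SD 0.397), and did not pass (limma adjusted p = 0.397).

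Of 27 tested features of actin assembly and turnover, 3 (11.1%) fell with P4P6 against sgRNA, beside 7.17% of all features: the depolymerising factors DSTN (-0.14) and CFL2 (-0.18) and the joint feature of ACTR3 and ACTR3B (-0.18), subunits of the filament-branching Arp2/3 complex. Against TOP1, 8 (29.6%) fell, beside 11.4% of all features (those 3 with ARPC2, ACTR2, CAPZA1, TMSB4X and DIAPH3) by 0.15 to 0.28 on the log2 scale, and LIMK1, a kinase that inactivates cofilin, rose by 0.24. The list's medians were -0.10 from TOP1 and -0.08 from sgRNA. Under quantile normalization none fell against sgRNA, and against TOP1 CFL2 alone fell, by 0.18 (limma adjusted p = 0.0410). Against sgRNA, 4 fell without P4P6 replicate 0, and none in the other fits with a library left out, where almost no feature passed. Against TOP1, 8 fell without P4P6 replicate 0, 5 without P4P6 replicate 1 and none without either TOP1 library. The most abundant genes of the list, PFN1, TMSB10 and ARPC3, did not pass in either comparison; PFN1, profilin, averaged 448 FPKM with P4P6 (SD 37.4, n = 2), 444 with TOP1 (SD 3.77) and 459 with sgRNA (SD 23.5).

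Of 17 tested myosin II and tropomyosin partners, MYH9 again rose in both comparisons, since it is on both lists. The light chains MYL6 and MYL12B fell with P4P6 in both, MYL6 by 0.23 against TOP1 (limma adjusted p = 0.0248) and 0.24 against sgRNA (0.0339), and the calponin CNN3 fell against TOP1 alone (by 0.18, limma adjusted p = 0.0482). None of these falls passed under quantile normalization, and the MYH9 rises did. Against sgRNA both light chains lost their call without any 1 library (limma adjusted p = 0.0653 to 0.195 for MYL6 and 0.0591 to 0.195 for MYL12B). Against TOP1, with 1 library left out, MYL6 passed in 2 of 4 fits and MYL12B and CNN3 in 1 of 4 each, without P4P6 replicate 1. Of 11 other intermediate filament features, none passed against sgRNA, and the joint feature of JUP and KRT19 rose against TOP1 (0.51, limma adjusted p = 0.0240; lost without P4P6 replicate 1, at 0.116, and without TOP1 replicate 0, at 0.149); LMNB1, LMNB2 and KRT18, the most abundant, did not pass. No listed gene passed in TOP1 against sgRNA or in sgRNA, P4P6 or TOP1 against CasVP. In fits of only the 4 libraries of the groups compared no listed gene passed, but neither did more than 0.0173% of all features.

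Promoters were read because SRF acts through CArG boxes. RefSeq start sites on GRCh38.p14 were matched for 7 of the genes, ACTG1, TPM1, TPM2, TPM3, TPM4, VIM and CFL1, with 11 starts in all. Windows reaching 250 bases before and 50 after a start were searched on both strands. The CArG box, in which CC and GG flank a run of A or T letters, was in 1.29% of 35116 promoters of the same length. It was present at ACTG1 and at 1 of the TPM4 starts and absent from these windows of TPM1, TPM2, TPM3, VIM and CFL1. The 180 bases before the start are shown for ACTG1 and TPM4, with the CArG box in capitals, and for TPM2, which had the widest span of group means among the 9 tested features, with none; coordinates are on the minus strand for ACTG1 (chr17:81512800-81512979) and TPM2 (chr9:35690057-35690236) and on the plus strand for TPM4 (chr19:16067358-16067537).
ACTG1: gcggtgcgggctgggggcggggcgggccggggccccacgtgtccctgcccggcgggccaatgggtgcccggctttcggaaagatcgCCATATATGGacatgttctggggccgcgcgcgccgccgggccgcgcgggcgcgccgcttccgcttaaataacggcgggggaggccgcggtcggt
TPM4: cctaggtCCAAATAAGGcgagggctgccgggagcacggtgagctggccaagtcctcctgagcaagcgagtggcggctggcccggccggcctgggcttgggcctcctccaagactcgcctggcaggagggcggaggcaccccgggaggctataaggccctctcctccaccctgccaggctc
TPM2: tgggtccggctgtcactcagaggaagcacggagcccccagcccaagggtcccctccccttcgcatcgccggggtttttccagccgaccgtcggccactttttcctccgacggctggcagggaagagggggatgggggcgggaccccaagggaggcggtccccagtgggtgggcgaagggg
The ACTG1 box, CCATATATGG, lay at -94 to -85 from the start, and the TPM4 box, CCAAATAAGG, at -173 to -164. The other letters searched were CCAAT (34.6% of promoters), CATTCC (14.0%), TATAAA (11.5%) and GGGCGG (44.95%). GGGCGG was in windows of all 7 genes, CCAAT in those of ACTG1 and CFL1, and neither CATTCC nor TATAAA in any. With P4P6 against TOP1 the log2 difference of ACTG1 was 0.14, which did not pass, and that of TPM4 was -0.19, which did.

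The profiles most like that of TPM2 over the 10 libraries belonged to other kinds of gene. Among 9123 features with a mean of at least 5 FPKM, the smallest root mean square distances on the centred log2(FPKM + 1) scale were those of NLGN2 (0.116), LENG8 (0.125), GOLGA8A (0.129), C20orf46 (0.136) and the joint feature of GABBR1 and UBD (0.137), beside a spread of TPM2 itself of 0.244. NLGN2, a synaptic adhesion protein, averaged 16.3 FPKM with INT (SD 0.993, n = 2), 17.3 with P4P6 (SD 1.15), 13.2 with TOP1 (SD 1.02), 13.04 with sgRNA (SD 0.526) and 12.5 in CasVP (SD 1.06). For the joint actin feature the nearest were C4orf21 (0.114), POLK (0.127), KIF14 (0.127), TRIP11 (0.129) and ARID4A (0.132), beside its own spread of 0.218. Each of these genes was highest in INT replicate 1, the library that stood apart in the joint feature. KIF14, for example, was at 12.0 FPKM there and 9.01 FPKM in INT replicate 0. Distances without that library were not examined. ACTG1 ranked 161 for TPM2 and 1443 for the joint feature, and TPM2 ranked 7896 for the joint feature.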

How the data were processed

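The submitters' processing notes name TopHat2 2.0.13, Cuffdiff 2.2.1 and the build hg19. The role of each tool, the gene annotation, strand use and scaling between libraries are not given in the sources used here. The authors deposited a table of FPKM values with 1 column per library. Each column names a group and an index, and the index was not matched to the replicate numbers of the labels. The table has 20246 features, and 945 without a gene name, 2.31 to 2.47% of summed FPKM, were left out. Read counts were not used here. Depth was estimated from low features, whose FPKM step by single fragments; 73.8% of 8732 such values were whole multiples within 0.05, and the total for CasVP replicate 0 rests on 255 features with an interquartile range of 25000000 to 30000000. Intervals cover the spread between libraries only.

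Values were taken as log2(FPKM + 1), on which the differences of low features are understated. The 11574 named features whose FPKM averaged 1 or more were fitted in limma 3.58.1 (R 4.3.3), allowing the variance to trend with level, with a mean per group and all 10 libraries in 1 fit (5 residual degrees of freedom), tested on simulated data. P-values are two-sided, adjusted by Benjamini-Hochberg over all tested features of a comparison, with a threshold of 0.05. Of 8 comparisons 6 were tested and those of INT described. Tests of TPM2 and the joint actin feature against sgRNA had been planned and were dropped, because the sgRNA libraries served the INT comparison. No overlap means that both libraries of a group lay above, or below, both of the other. Coding sequences come from GENCODE 29 and promoters from RefSeq on GRCh38.p14, used for sequence only.

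The members and the gene lists were chosen with earlier results of these data known. Named genes are all members, the 3 most abundant features of each of the 4 lists and those that passed, and for TPM2 and the joint actin feature the 5 nearest profiles. Alternatives changed the pseudocount (to 0.1), the filter (none, or an average of 5 FPKM), the scaling (by median of ratios, or by quantiles) or the fit (a block for the replicate index, a variance without trend, weights per library, only the libraries compared, each library left out in turn).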

Additional observations from a re-analysis of the deposited data

How the results depend on the processing

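Of the features tested, 1 passed in P4P6 against sgRNA and 2 in P4P6 against TOP1, beside 11.5% and 20% of all features. Against sgRNA the count was 0 without the filter (3.78% of all features), 2 with a mean of at least 5 FPKM (16%; TPM1 added), 0 without the trend (5.77%), 0 with library weights (3.32%), 0 with only the libraries of both groups (0.0173%), and 0 to 1 over the replicates left out. Against TOP1 it was 0 without the filter (9.99%), 1 under quantile normalization (10.2%), 0 without the trend (16.6%), 0 with library weights (10.4%), 0 with only the libraries of both groups (0.00864%), and 0 to 1 over the replicates left out. Without P4P6 replicate 0, TAGLN passed upwards (0.60 against sgRNA, adjusted p = 0.0359; 0.54 against TOP1, 0.0414), and without TOP1 replicate 1, VIM passed downwards with P4P6 against TOP1 (-0.23, 0.0495). The count was 0 in every alternative for TOP1 against sgRNA and for sgRNA, P4P6 and TOP1 against CasVP. A replicate left out leaves a group with 1 library, which is then assumed to vary like the others.

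Column indices were not taken to pair the libraries, since no label says that they do and not every correlation exceeded 0.1: deviations of same-index libraries correlated at -0.04 to 0.42 over 10 pairs of groups, 8 over 0.1 and 9 above 0, a hint of shared variation from the data. With the index as a replicate block, 2 features passed in P4P6 against sgRNA (TPM1 added, limma adjusted p = 0.0439), beside 20.1% of all features. In P4P6 against TOP1, 2 passed, beside 28% of all features. Against sgRNA the block gave 2326 calls over all features, against 1331 as reported, 9 falls of actin assembly genes, against 3, and 5 rises of SRF and MRTF targets, against 2.

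Quantile normalization turned these log2 differences: against CasVP, TPM3 with P4P6 to 0.0661, CFL1 with P4P6 to 0.0833, TPM4 with P4P6 to 0.0277, TAGLN with TOP1 to 0.00337, ACTG1 with TOP1 to -0.0309, CFL1 with sgRNA to -0.0557 and ACTG1 with sgRNA to -0.0309. Against sgRNA it turned VIM with P4P6 to 0.0644, CFL1 with P4P6 to 0.139 and VIM with TOP1 to -0.00336, and against TOP1 it turned VIM with P4P6 to 0.0677. None of these had passed, and the cause was not tested. Over the replicates left out, differences also changed sign. With P4P6 against CasVP they ran between -0.0830 and 0.0163 for TPM3, -0.0765 and 0.0635 for CFL1, -0.109 and 0.0186 for TPM1, and -0.0733 and 0.00795 for TPM4. With TOP1 against CasVP they ran between -0.157 and 0.125 for TAGLN and -0.0868 and 0.0532 for CFL1. With sgRNA against CasVP they ran between -0.219 and 0.0635 for TAGLN and -0.0421 and 0.0980 for CFL1. Against sgRNA they ran with P4P6 between -0.104 and 0.0354 for CFL1, and with TOP1 between -0.0329 and 0.00656 for TPM3, -0.113 and 0.125 for VIM, -0.0418 and 0.165 for TAGLN, and -0.115 and 0.0251 for CFL1. With P4P6 against TOP1 they ran between -0.232 and 0.00505 for VIM and -0.0594 and 0.0800 for CFL1. Among the 9 tested features depth limits TAGLN most, at an estimated 30.0 to 69.9 fragments per kilobase.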
